A study of Homo sapiens with 18 samples.

Results

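Aminoacyl-tRNA synthetases are the enzymes that join each amino acid to its tRNA, and their mRNAs were followed here in MDA-MB-231 cells. The genes were taken by symbol from a fixed list, which gave 34 of the 60642 symbols counted. By the convention of their names, 18 encode cytosolic enzymes (symbols ending in 1, with FARSA and FARSB, the α and β subunits of the phenylalanine enzyme) and 15 encode mitochondrial enzymes (symbols ending in 2). TARS3, a threonyl-tRNA synthetase-like gene, was placed in neither class. All 34 had enough counts to be tested.

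A synthetase recognises an amino acid and the matching tRNAs, uses ATP to activate the amino acid and transfers it to the end of the tRNA, which then carries it to the ribosome. Most amino acids have separate nuclear genes for the cytosolic and the mitochondrial enzyme, whereas GARS1 and KARS1 encode both forms and QARS1 has no mitochondrial counterpart. Several cytosolic enzymes assemble with the scaffold proteins AIMP1, AIMP2 and EEF1E1 into the multi-synthetase complex. When amino acids are scarce or secretory load is high, phosphorylation of eIF2α raises translation of the transcription factor ATF4, a known activator of many cytosolic synthetase genes and of amino acid transport and synthesis genes.

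MDA-MB-231 is an established human triple-negative breast cancer cell line, and dexamethasone (Dex) is a synthetic ligand of the glucocorticoid receptor. The study asked how PRMT5, an arginine methyltransferase, and HP1γ, a heterochromatin protein encoded by CBX3, take part in the response to this receptor. Cells received control siRNA (siNS), siRNA against HP1γ (siHP1γ) or siRNA against PRMT5 (siPRMT5), and each was given 100 nM Dex or the same volume of ethanol (Eth) for 8 h. The 6 conditions, siNS Eth, siNS Dex, siHP1γ Eth, siHP1γ Dex, siPRMT5 Eth and siPRMT5 Dex, had 3 libraries each. All libraries come from the same parental line with transient depletion by siRNA, so residual target protein and effects of the siRNAs on other genes belong to the groups as compared.

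The libraries held 8682992 to 12472381 counted reads, of which 48985 to 75604 fell on the 34 synthetases. PRMT5 was at 6.10 to 11.5 CPM (counts scaled to a common library size of 1000000 reads, with TMM) in the 6 siPRMT5 libraries and at 177 to 262 CPM in the other 12, and CBX3 was at 9.23 to 15.8 CPM in the 6 siHP1γ libraries and at 218 to 288 CPM elsewhere. Of the mesenchymal markers looked at, VIM was at 5444 to 9592 CPM, CD44 at 506 to 857 CPM and AXL at 182 to 1003 CPM. SPARC, also on that list, was low, at 5.81 to 10.7 CPM. Of the epithelial and luminal markers listed as absent or low, KRT18 went the other way, at 219 to 408 CPM. EPCAM was at 8.57 to 14.0 CPM. ESR1, PGR and CDH1 did not exceed 0.218 CPM in any library, and the leukocyte marker PTPRC did not exceed 0.221 CPM. The endothelial marker PECAM1 was at 1.10 to 8.15 CPM and the fibroblast marker COL1A1 at 2.69 to 15.1 CPM.

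The mRNAs of the cytosolic enzymes were the more abundant. Their mean level over the 18 libraries ran from 1.19 CPM (CARS1) to 958 CPM, with a median of 220 CPM, and 16 of the 18 were at 100 CPM or more. The mitochondrial enzymes had a median of 34.8 CPM, from 6.71 CPM (SARS2) to 220 CPM (IARS2). CPM is not corrected for gene length, so these values order read counts and not molecules. The lowest counts were 6 to 17 reads per library for CARS1, 38 to 70 for TARS3 and 45 to 86 for SARS2, and differences in these genes are measured with the least precision. Among related genes outside the 34, EEF1G and TSEN34 had 0 reads in all 18 libraries and EEF1D 0 to 2. Whether such low counts, that of CARS1 included, reflect little mRNA or reads not assigned to the gene was not tested.

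The response element of ATF4 was looked for in the promoters because it is the sequence by which synthetase genes are known to join the stress response. The RefSeq promoters (GRCh38.p14, 250 bases before to 50 after each start) covered 30 of the 34 genes. LARS1, YARS1, AARS2 and TARS3 had no entry. The element was searched as TGATGNAA on both strands. The 8 promoters that held it are shown as 30-base windows, written 5′ to 3′ along the strand of the gene, with the element in capitals. Read on the other strand, TTNCATCA is the same element.
AARS1: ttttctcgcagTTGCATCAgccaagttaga
CARS1: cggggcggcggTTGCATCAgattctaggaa
GARS1: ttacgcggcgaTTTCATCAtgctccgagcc
IARS1: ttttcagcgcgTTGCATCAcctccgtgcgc
MARS1: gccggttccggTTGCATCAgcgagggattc
NARS1: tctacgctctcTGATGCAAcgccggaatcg
TARS1: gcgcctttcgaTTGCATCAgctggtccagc
YARS2: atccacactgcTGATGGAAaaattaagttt

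Positions of the element are given relative to the RefSeq starts. The AARS1 window lies at chr16:70289675-70289704 on the minus strand, with the element upstream of the start. The CARS1 window is at chr11:3057407-3057436 (minus strand) and the MARS1 window at chr12:57488053-57488082 (plus strand), and in both the element spans the annotated start. IARS1, at chr9:92293692-92293721 (minus strand), and GARS1, at chr7:30594834-30594863 (plus strand), hold it just upstream. NARS1, at chr18:57621804-57621833 (minus strand), and TARS1, at chr5:33440956-33440985 (plus strand), hold it just downstream, within the transcript. The single mitochondrial match, YARS2, is at chr12:32756076-32756105 on the minus strand. In GENCODE 44 the spans of AARS1, CARS1, GARS1, IARS1 and MARS1 begin farther upstream, so these windows lie inside those spans. By gene, 7 of the 16 cytosolic synthetases with a promoter entry held the element (43.8%), against 1 of 14 mitochondrial ones (7.14%) and 276 of the 10035 genes tested that had an entry (2.75%). Genes can have several start sites: by promoter the shares were 33.3% of 21 cytosolic, 5.56% of the mitochondrial and 2.02% of 14675 promoters of genes tested. A match is a description of letters in the window and not evidence of a bound site.

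After PRMT5 depletion most of the cytosolic synthetase mRNAs that changed were lower. With Dex, 19 of the 34 genes passed an adjusted p of 0.05 in siPRMT5 Dex against siNS Dex, 13 lower and 6 higher, when 42.4% of the 15298 genes tested passed, 21.9% of genes lower and 20.6% higher (edgeR quasi-likelihood test, Benjamini-Hochberg adjustment over all genes). Among the cytosolic enzymes 9 of 18 were lower and 3 were higher. Among the mitochondrial enzymes 4 of 15 were lower (26.7%) and 3 higher. Abundant genes pass more often: of the 2653 genes averaging 100 CPM or more, 26.1% were lower, and of the 8758 genes between 5 and 100 CPM 24.9%. Against those shares the cytosolic count of lower genes stood above the background and the mitochondrial count stood near it. The median log2 fold change was −0.22 in the cytosolic class and −0.07 in the mitochondrial class, with 0.00 over all genes tested.

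**Figure D1:**
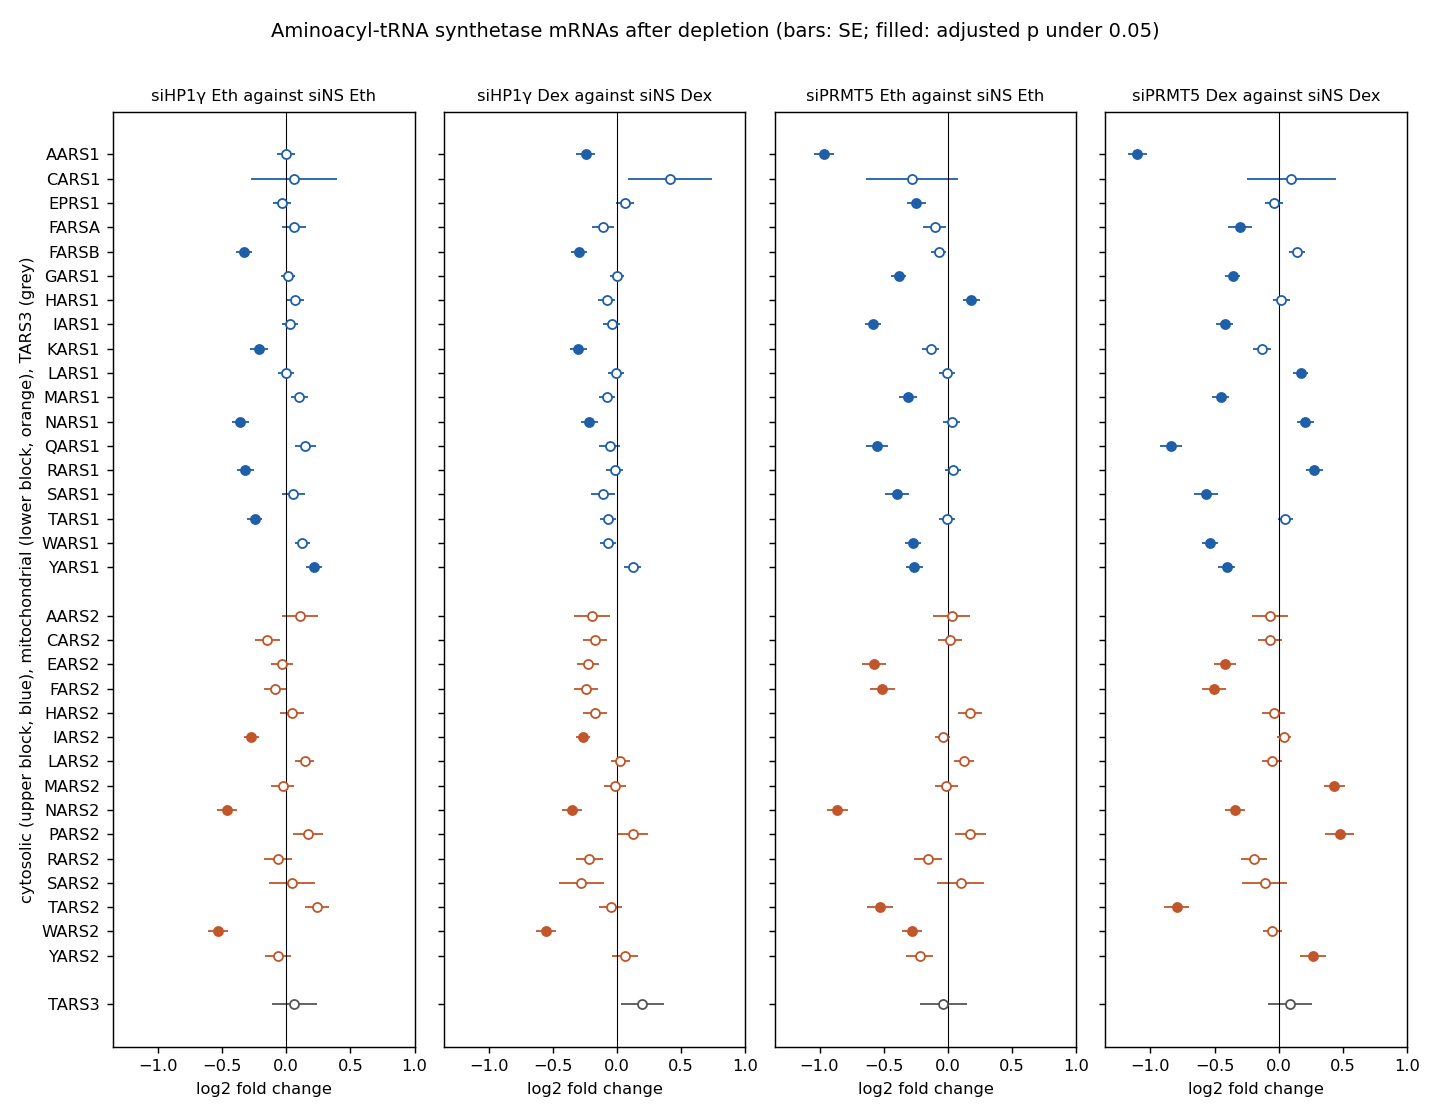
The log2 fold change (x axis) of each of the 34 synthetase mRNAs (rows) is plotted for siHP1γ and siPRMT5 against siNS, with Eth and with Dex, with bars for the SE and filled points for an adjusted p under 0.05. In siPRMT5 cells AARS1 lies farthest to the left, at −0.97 with Eth and −1.10 with Dex.

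AARS1, the alanyl-tRNA synthetase (chr16:70251983-70289707, minus strand), fell the most. Its level was 269, 269 and 272 CPM in the siNS Dex libraries and 132, 121 and 125 CPM in the siPRMT5 Dex libraries. With Eth it was 233, 273 and 262 CPM in siNS and 133, 136 and 123 CPM in siPRMT5. The siPRMT5 libraries lay below every siNS library under both treatments. The log2 fold change was −1.10 ± 0.0756 (SE, n = 3 per group, edgeR adjusted p = 1.04e-11) with Dex, a level 0.466 times that of siNS, and −0.97 ± 0.0758 (edgeR adjusted p = 1.3e-10) with Eth. AARS1 shares 43 exon bases with DDX19B in GENCODE 44.

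QARS1, the glutaminyl-tRNA synthetase (chr3:49095932-49105130, minus strand), was at 140, 142 and 149 CPM in siNS Dex and at 80.2, 76.3 and 84.3 CPM in siPRMT5 Dex. With Eth its levels were 120, 140 and 139 CPM in siNS and 95.0, 93.0 and 84.4 CPM in siPRMT5. Again no siPRMT5 library reached the lowest siNS library. QARS1 had a log2 fold change of −0.84 ± 0.0844 (edgeR adjusted p = 1.11e-08) with Dex and −0.55 ± 0.0846 (edgeR adjusted p = 8.12e-06) with Eth. It shares 61 exon bases with MIR6890 on the same strand.

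IARS1, the isoleucyl-tRNA synthetase of the multi-synthetase complex (chr9:92210207-92293854, minus strand), was among the more abundant of the genes. In siNS Eth it was at 564, 589 and 572 CPM, and in siPRMT5 Eth at 365, 400 and 385 CPM. In siNS Dex it was at 534, 589 and 575 CPM, and in siPRMT5 Dex at 392, 454 and 421 CPM. The groups were apart under both treatments. Its log2 fold change was −0.58 ± 0.0638 with Eth (edgeR adjusted p = 4.7e-08) and −0.42 ± 0.0635 with Dex (edgeR adjusted p = 6.69e-06).

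The other cytosolic enzymes that fell with Dex were SARS1 (log2 fold change −0.57), WARS1 (−0.53), MARS1 (−0.45), YARS1 (−0.41), GARS1 (−0.36) and FARSA (−0.30). They charge serine, tryptophan, methionine, tyrosine and glycine, and FARSA is the catalytic subunit for phenylalanine, whose partner subunit FARSB did not pass the test. SARS1, second to TARS1 in mean level among the 34, went from 943 ± 36.2 CPM in siNS Dex to 637 ± 46.3 CPM in siPRMT5 Dex (mean ± SD, n = 3). MARS1 shares 355 exon bases with DDIT3, the gene of the stress factor CHOP on the opposite strand, which changed by −0.40 with Dex and −0.52 with Eth on the log2 scale, and the strand setting of the counting is not given in the sources used here. WARS1 shares 287 exon bases with WDR25 and YARS1 396 with S100PBP, so their counts carry the same uncertainty. FARSA missed the threshold when the siNS Dex replicate 2 was left out (adjusted p = 0.0709 in the edgeR fit).

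Cytosolic enzymes that were higher in siPRMT5 Dex than in siNS Dex were RARS1, NARS1 and LARS1. RARS1, the arginyl-tRNA synthetase (chr5:168486451-168519301, plus strand), was at 168, 169 and 167 CPM in siNS Dex and at 205, 206 and 200 CPM in siPRMT5 Dex, without overlap. Its log2 fold change was 0.28 ± 0.0653 (edgeR adjusted p = 0.00126). With Eth the 193, 178 and 205 CPM of siNS and the 196, 191 and 205 CPM of siPRMT5 overlapped (log2 fold change 0.04 ± 0.0654, edgeR adjusted p = 0.673). The effect of PRMT5 depletion on RARS1 was not called different with and without Dex by the interaction test.

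NARS1, which charges asparagine, had 235, 227 and 227 CPM in siNS Dex and 264, 278 and 252 CPM in siPRMT5 Dex (log2 fold change 0.21 ± 0.0674, edgeR adjusted p = 0.0155). LARS1, which charges leucine, had a log2 fold change of 0.17 ± 0.0601 (edgeR adjusted p = 0.0239). Both calls were small. NARS1 was lost without siPRMT5 Dex replicate 2 (adjusted p = 0.073 with edgeR) or without the filter on low counts (0.0529). LARS1 was lost without that filter or with the libraries of the comparison alone (up to 0.148), and without siNS Dex replicate 1 or siPRMT5 Dex replicate 2 or 3 (adjusted p up to 0.0938 with edgeR).

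**Figure D2:**
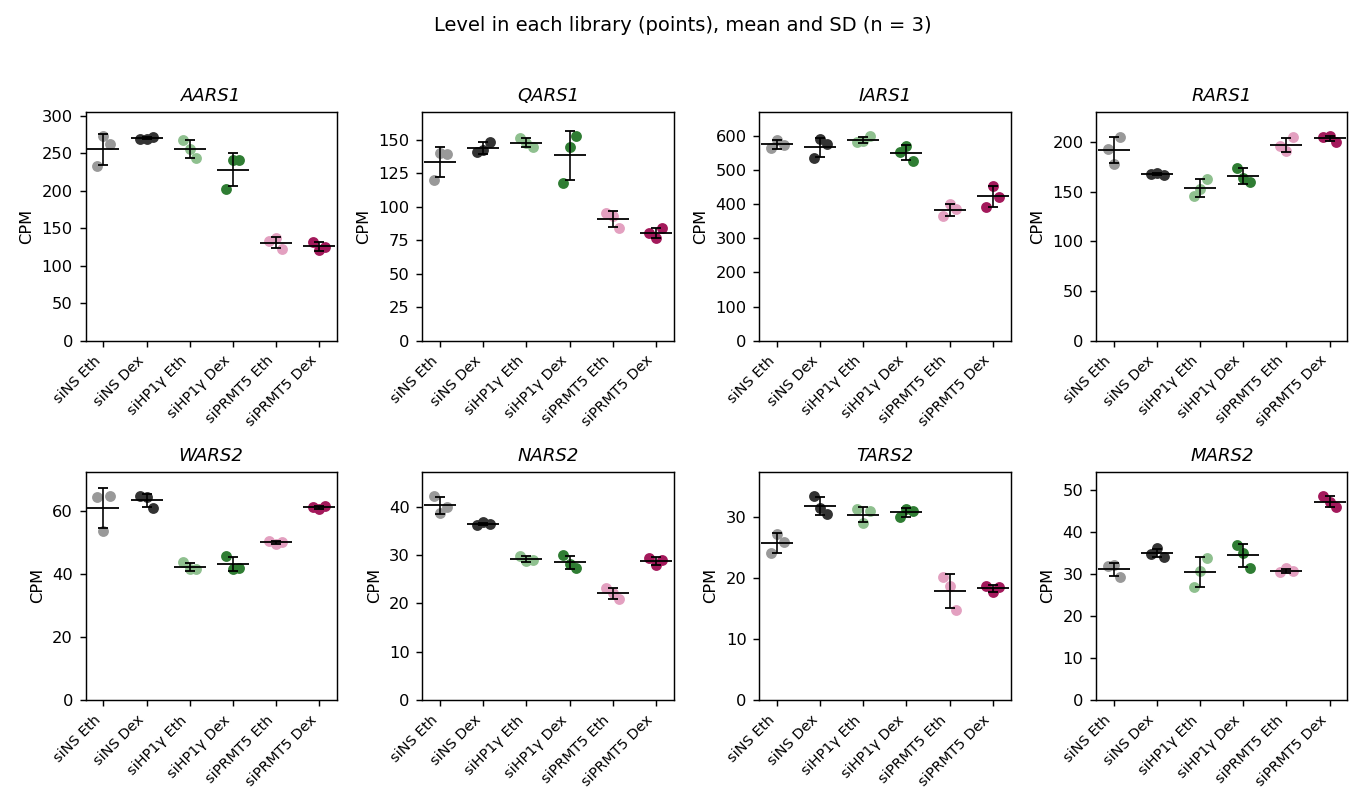
Each panel shows 1 synthetase mRNA in CPM (y axis, from 0) in the 18 libraries, grouped by condition (x axis), with points for libraries and lines for the mean and SD of 3. AARS1, QARS1, IARS1 and TARS2 are lower in all 6 siPRMT5 libraries than in all 6 siNS libraries, WARS2 is lower in the siHP1γ libraries, and MARS2 is highest in siPRMT5 Dex at 45.9 to 48.5 CPM.

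Without Dex, siPRMT5 Eth against siNS Eth gave 15 genes past the threshold, 14 lower and 1 higher, beside 42.1% of all genes tested, 21.6% lower and 20.6% higher. Of the cytosolic enzymes 9 of 18 were again lower (median −0.25), and of the mitochondrial enzymes 5 of 15 (33.3%, median −0.04). The single increase was HARS1, the histidyl-tRNA synthetase, at 137, 148 and 150 CPM in siNS Eth and 161, 176 and 157 CPM in siPRMT5 Eth (log2 fold change 0.18 ± 0.0661, edgeR adjusted p = 0.0284). It was lost without siNS Eth replicate 1 or siPRMT5 Eth replicate 2 (adjusted p up to 0.162 with edgeR), and also without the filter on low counts or with the libraries of the comparison alone (up to 0.0958). HARS1 shares 1090 exon bases with WDR55 and 108 with HARS2 on the opposite strand and 176 with DND1 on its own strand. EPRS1, the enzyme for glutamate and proline, was lower with Eth (log2 fold change −0.25) and was not called without siPRMT5 Eth replicate 1 (adjusted p = 0.0647 with edgeR).

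The comparisons with and without Dex use different libraries, so the genes called in both can be counted. Of the 13 synthetases lower with Dex and the 14 lower with Eth, 12 were in both (92.3% and 85.7% of each list), and over all genes tested these shares were 69.5% and 70.5%. The 12 were AARS1, GARS1, IARS1, MARS1, QARS1, SARS1, WARS1 and YARS1 among the cytosolic enzymes and EARS2, FARS2, NARS2 and TARS2 among the mitochondrial ones. None of the 6 genes higher with Dex was the 1 gene higher with Eth, while over all genes 62.7% of those higher with Dex were also higher with Eth. CARS1, AARS2, CARS2, HARS2, LARS2, RARS2, SARS2 and TARS3 passed in none of the 4 comparisons of depleted with siNS cells.

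**Figure D3:**
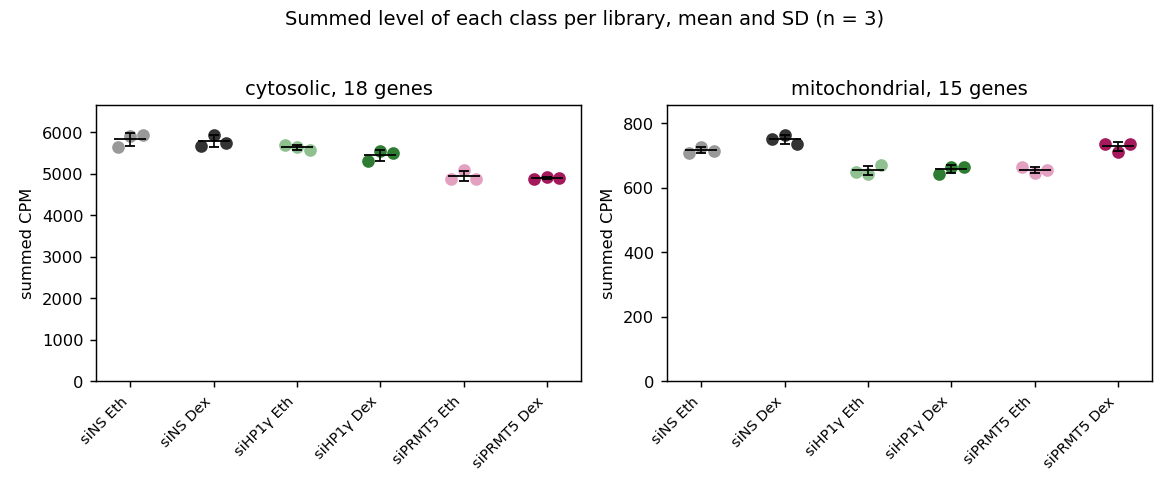
The summed CPM of the 18 cytosolic (left) and 15 mitochondrial (right) synthetase mRNAs is plotted on axes from 0 for each library, with the mean and SD of 3 libraries per condition. The cytosolic sum is 4950 and 4898 CPM in siPRMT5 Eth and Dex, below the 5838 and 5785 CPM of siNS.

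Summed over the class, the cytosolic synthetases took 5838 ± 157 CPM in siNS Eth and 4950 ± 129 CPM in siPRMT5 Eth, which is 84.8% of the control, and 5785 ± 145 CPM in siNS Dex and 4898 ± 27.5 CPM in siPRMT5 Dex, which is 84.7% (mean ± SD, n = 3). The mitochondrial sum was 716 ± 9.34 CPM in siNS Eth and 655 ± 8.11 CPM in siPRMT5 Eth (91.6%), and 751 ± 14.5 CPM in siNS Dex and 728 ± 14.8 CPM in siPRMT5 Dex (97.0%). In siHP1γ cells the cytosolic sums were 96.6% (Eth) and 94.3% (Dex) of siNS, and the mitochondrial sums 91.4% and 87.6%. These are shares of the counted RNA. A change in total RNA per cell cannot be seen in them, and the sums are carried by the most abundant genes.

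Of the mitochondrial enzymes, TARS2 fell the most in siPRMT5 Dex. TARS2, the mitochondrial threonyl-tRNA synthetase (chr1:150487414-150507602, plus strand), was at 33.5, 31.6 and 30.5 CPM in siNS Dex and 18.8, 17.8 and 18.6 CPM in siPRMT5 Dex. With Eth it was at 24.1, 27.2 and 26.0 CPM in siNS and at 20.2, 18.7 and 14.8 CPM in siPRMT5. The siPRMT5 libraries were below the siNS libraries under both treatments. TARS2 changed on the log2 scale by −0.80 ± 0.0972 (edgeR adjusted p = 2.99e-07) with Dex and −0.53 ± 0.102 (edgeR adjusted p = 0.000142) with Eth. It shares 66 exon bases with MIR6878 on the same strand.

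NARS2, the mitochondrial asparaginyl-tRNA synthetase (chr11:78435620-78575194, minus strand), was lower in siPRMT5 cells above all without Dex. Its level was 42.2, 38.6 and 39.9 CPM in siNS Eth and 23.3, 22.1 and 21.0 CPM in siPRMT5 Eth. With Dex it was 36.1, 36.7 and 36.4 CPM in siNS and 29.4, 27.9 and 29.0 CPM in siPRMT5. NARS2 changed on the log2 scale by −0.86 ± 0.081 with Eth (edgeR adjusted p = 3.66e-09) and −0.34 ± 0.0779 with Dex (edgeR adjusted p = 0.000946). FARS2, for phenylalanine, fell by 0.51 on the log2 scale under each treatment, and EARS2, for glutamate, by 0.58 with Eth and by 0.42 with Dex. EARS2 shares 203 exon bases with GGA2 on the same strand.

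The mitochondrial enzymes that were higher in siPRMT5 Dex were PARS2, MARS2 and YARS2, for proline, methionine and tyrosine. PARS2 (chr1:54756898-54764523, minus strand) was at 16.3, 16.0 and 15.8 CPM in siNS Dex and at 23.7, 19.0 and 24.4 CPM in siPRMT5 Dex (log2 fold change 0.47 ± 0.113, edgeR adjusted p = 0.00144). MARS2 (chr2:197705369-197708395, plus strand) was at 34.8, 36.1 and 34.0 CPM and at 48.5, 47.0 and 45.9 CPM (0.43 ± 0.0847, edgeR adjusted p = 0.000177). In both genes the 3 siPRMT5 Dex libraries stood above the siNS Dex libraries. With Eth neither passed the test, with PARS2 at 13.9, 15.8 and 16.4 CPM in siNS and 16.5, 18.1 and 17.5 CPM in siPRMT5. YARS2 had a log2 fold change of 0.27 ± 0.101 (edgeR adjusted p = 0.0333), which 5 of the libraries, each left out, brought above the threshold (adjusted p up to 0.0873).

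For 12 amino acids a single cytosolic gene and its mitochondrial counterpart, each serving that amino acid alone, are among the 34. In siPRMT5 Dex, 4 of these pairs had only the cytosolic gene lower (alanine, serine, tryptophan and isoleucine) and threonine had only the mitochondrial gene lower. For arginine and leucine only the cytosolic gene was higher. In 3 pairs the genes were called in opposite directions: MARS1 fell and MARS2 rose, YARS1 fell and YARS2 rose, and NARS1 rose and NARS2 fell. None of these 12 pairs had both genes lower, and the cysteine and histidine pairs had neither called. In siPRMT5 Eth, 5 pairs had only the cytosolic gene lower, 2 only the mitochondrial gene, tryptophan had both lower, histidine had only the cytosolic gene higher, and 3 had neither. Phenylalanine, glutamate and proline were left out of these counts, because the cytosolic phenylalanine enzyme has separate subunit genes and EPRS1 serves both glutamate and proline. For phenylalanine FARSA and FARS2 were both lower in siPRMT5 Dex while FARSB was not called, and FARS2 alone was lower in siPRMT5 Eth. EARS2 was lower under both treatments and EPRS1 with Eth, so that both genes for glutamate were lower in siPRMT5 Eth. For proline PARS2 was higher in siPRMT5 Dex, where EPRS1 was not called, and EPRS1 was lower in siPRMT5 Eth, where PARS2 was not called. Over all genes tested 21.9% were lower and 20.6% higher with Dex, and 21.6% were lower and 20.6% higher with Eth. How often unrelated genes would give each pattern was not counted. The NARS1 and YARS2 calls with Dex were lost when some single libraries were left out. The difference between the genes for an amino acid was not tested.

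**Figure D4:**
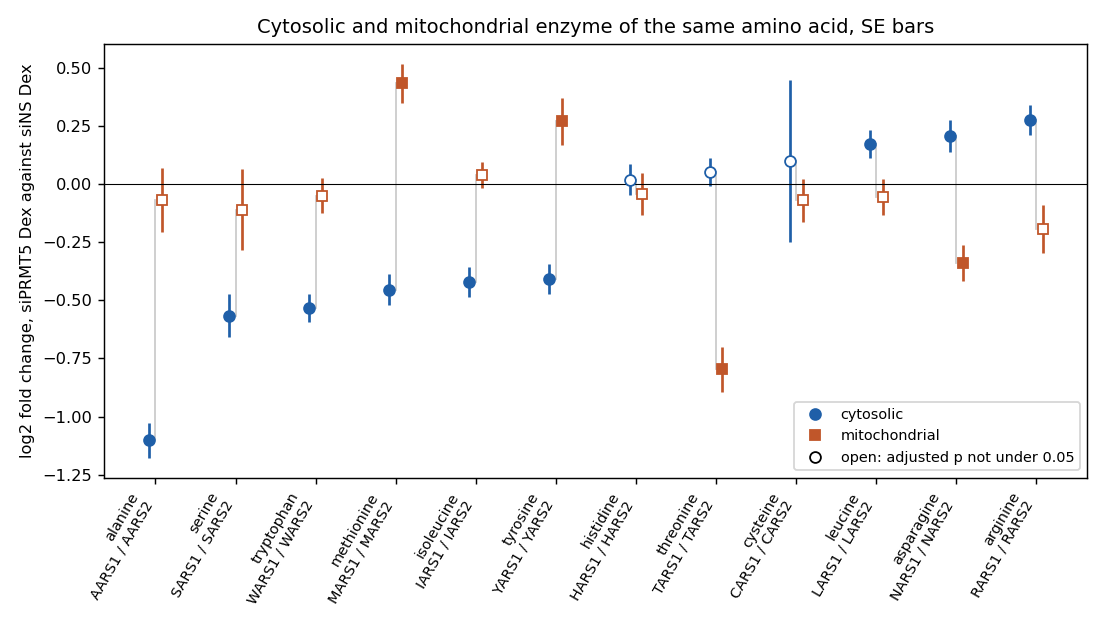
The log2 fold change in siPRMT5 Dex against siNS Dex (y axis, bars SE) is plotted for the cytosolic (circles) and mitochondrial (squares) enzyme of the same amino acid (x axis), with open symbols where the adjusted p was not under 0.05. The widest gap is at alanine, where AARS1 is at −1.10 and AARS2 was not called.

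The enzymes of the multi-synthetase complex, a list drawn up after the values were seen, were called in both directions. Of the 7 in the list, IARS1, MARS1 and QARS1 were lower in siPRMT5 Dex, LARS1 and RARS1 were higher, and EPRS1 and KARS1 did not pass, with a median log2 fold change of −0.13. Of the 11 cytosolic enzymes outside it, 6 were lower and 1 was higher, with a median of −0.30. With Eth, 4 of the 7 and 5 of the 11 were lower. Over all genes tested 21.9% were lower and 20.6% higher with Dex and 21.6% lower with Eth, and among genes averaging 100 CPM or more 26.1% and 27.7% were lower. Of the scaffold proteins, AIMP2 was higher in siPRMT5 cells with Dex (log2 fold change 0.43, edgeR adjusted p = 7.46e-06) and with Eth (0.19), and EEF1E1 was lower with Eth (−0.55). AIMP1 was lower in siHP1γ cells with Eth (−0.35) and Dex (−0.20), and AIMP2 with Eth (−0.18).

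The genes of the ATF4 stress response other than synthetases were also mostly lower after PRMT5 depletion. Of 18 tested, 13 were lower and 1 higher in siPRMT5 Dex (median −0.45), and 13 were lower and 1 higher in siPRMT5 Eth (median −0.61). Over all genes tested 21.9% were lower and 20.6% higher with Dex, 21.6% were lower and 20.6% higher with Eth, and both medians were 0.00. With Dex, SLC7A5, a transporter of large neutral amino acids, had a log2 fold change of −2.06 ± 0.0757 (edgeR adjusted p = 7.04e-17). CHAC1, which degrades glutathione, was at −1.92, SLC7A11, the cystine transporter, at −1.47, and ASNS, asparagine synthetase, at −1.19. ASNS had few reads, 44, 36 and 34 in siNS Dex and 22, 12 and 15 in siPRMT5 Dex. CHAC1 had 161, 107 and 124 reads in siNS Dex and 35, 42 and 25 in siPRMT5 Dex. The sizes of these changes are therefore imprecise. In siHP1γ cells 4 of these genes were higher and 5 lower under each treatment, with medians of 0.06 (Eth) and 0.01 (Dex), beside 16.5% of all genes higher and 15.2% lower with Eth and 11.7% and 12.3% with Dex. Among the synthetases that held the ATF4 element, 4 of 7 cytosolic genes were lower in siPRMT5 Dex and 1 was higher, with a median of −0.36. Among the 9 cytosolic genes whose promoter entry did not hold it, 4 were lower and 1 higher, with a median of −0.13. AARS1, GARS1, IARS1 and MARS1 were the lower ones with the element, NARS1 was higher, and CARS1 and TARS1 did not pass. The part of ATF4 in the synthetase changes was not tested.

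The remaining lists covered the steps around tRNA charging, and their counts are small. They stand beside 42.4% of all genes called in siPRMT5 Dex, 42.1% in siPRMT5 Eth, 24.0% in siHP1γ Dex and 31.8% in siHP1γ Eth. Of 12 genes of eIF2 kinases, its phosphatase subunits and eIF2B, 2 were higher and 3 lower in siPRMT5 Dex, among them EIF2B2, a subunit of the exchange factor of eIF2 (−1.11), PPP1R15B (0.78) and the kinase gene EIF2AK3 (−0.70). With Eth 1 was higher and 4 were lower, and in siHP1γ cells 2 were higher with Dex and 2 higher and 1 lower with Eth. Of 7 mitochondrial elongation factor genes 4 were higher and 1 lower in siPRMT5 Dex, including MTIF3 (0.69), MTRF1L (0.64), GFM1 (0.29) and TUFM (−0.37), with 2 higher and 2 lower with Eth. In siHP1γ cells none was called with Dex and 1 was lower with Eth. Of 4 partners of mitochondrial charging, MTFMT (−0.49) and GATC (−0.36) were lower in siPRMT5 Eth and none was called in the other 3 comparisons. EEF1D and EEF1G had too few reads to be tested. Of the 3 tested genes of elongation factor 1, 2 were lower in siHP1γ Dex and none in the other 3 comparisons. Of 8 tested genes of tRNA end processing, 2 were higher in siPRMT5 Dex, 2 lower in siPRMT5 Eth, and 1 was lower in siHP1γ cells under each treatment.

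In siHP1γ cells the synthetase mRNAs that passed were nearly all lower, WARS2 and NARS2 by the most. In siHP1γ Dex against siNS Dex 7 of the 34 passed, all lower, beside 24.0% of all genes tested, 12.3% lower and 11.7% higher. They were 4 of 18 cytosolic (22.2%) and 3 of 15 mitochondrial genes (20.0%), with class medians of −0.07 and −0.20. Of genes averaging 100 CPM or more 23.1% were lower, so the cytosolic share was near that background. Of genes between 5 and 100 CPM, where 14 of the 15 mitochondrial genes lay, 12.8% were lower. With so few genes the mitochondrial count was not far from that share. With Eth 9 passed, 8 lower and 1 higher, beside 31.8% of all genes, 15.2% lower and 16.5% higher, with medians of 0.02 and −0.03. The lower ones were 5 of 18 cytosolic (27.8%) and 3 of 15 mitochondrial genes (20.0%). Of genes averaging 100 CPM or more 27.2% were lower, and of genes between 5 and 100 CPM 16.1%. Both class shares were near these backgrounds. The 6 genes lower under both treatments were FARSB, KARS1, NARS1, IARS2, NARS2 and WARS2, which is 85.7% of the 7 with Dex and 75.0% of the 8 with Eth, when over all genes these shares were 64.8% and 52.4%.

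WARS2, the mitochondrial tryptophanyl-tRNA synthetase (chr1:119031216-119140654, minus strand), fell the most in siHP1γ cells. Its level was 64.6, 64.3 and 60.9 CPM in siNS Dex and 45.6, 41.6 and 41.9 CPM in siHP1γ Dex. With Eth it was 64.2, 53.7 and 64.6 CPM in siNS and 43.7, 41.5 and 41.4 CPM in siHP1γ. Every siHP1γ library was below every siNS library. WARS2 had a log2 fold change of −0.55 ± 0.0766 (edgeR adjusted p = 5.85e-06) with Dex and −0.53 ± 0.0777 (edgeR adjusted p = 1.07e-05) with Eth. WARS2 shares 168 exon bases with the antisense gene WARS2-AS1.

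NARS2 was lower in siHP1γ cells too, at 30.0, 28.2 and 27.3 CPM with Dex and 29.8, 28.8 and 28.9 CPM with Eth. Both sets lay below their siNS libraries, with log2 fold changes of −0.35 ± 0.0773 (edgeR adjusted p = 0.00143) and −0.46 ± 0.0777 (edgeR adjusted p = 5.39e-05). The cytosolic partner NARS1 was at 216, 200 and 176 CPM in siHP1γ Dex and at 188, 190 and 189 CPM in siHP1γ Eth. Against the 253, 234 and 240 CPM of siNS Eth its log2 fold change was −0.36 ± 0.068 (edgeR adjusted p = 0.000238), and with Dex it was −0.22 (edgeR adjusted p = 0.0213). Asparagine was the only one of the 12 pairs in which both genes were lower in siHP1γ cells under both treatments.

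KARS1, whose gene supplies lysyl-tRNA synthetase to both compartments, was at 455, 504 and 457 CPM in siNS Dex and 355, 403 and 391 CPM in siHP1γ Dex (log2 fold change −0.30 ± 0.0681, edgeR adjusted p = 0.00186). With Eth it was at 422, 456 and 476 CPM in siNS and at 400, 397 and 372 CPM in siHP1γ (−0.21, edgeR adjusted p = 0.0187). The groups did not overlap under either treatment. KARS1 shares 176 exon bases with TERF2IP on the opposite strand. FARSB changed by −0.30 with Dex and −0.33 with Eth, and IARS2 by −0.26 and −0.27. AARS1 passed in the comparison with Dex, at −0.24 (edgeR adjusted p = 0.0172), with 203, 241 and 242 CPM in siHP1γ Dex. RARS1 (−0.32) and TARS1 (−0.25) passed in the comparison with Eth, and for none of these 3 genes was the difference between treatments called by the interaction test with edgeR. DESeq2 called it for RARS1, which was at 145, 153 and 163 CPM in siHP1γ Eth. YARS1 was the single increase, with Eth, at 192, 182 and 185 CPM against 160, 168 and 153 CPM (0.22 ± 0.0646, edgeR adjusted p = 0.0116).

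Some of these smaller calls were lost when certain single libraries were left out. In siHP1γ Dex, AARS1 was lost without siHP1γ Dex replicate 1 or siNS Dex replicate 3 (adjusted p up to 0.124), and NARS1 without siNS Dex replicate 1 or siHP1γ Dex replicate 3 (up to 0.141) or with the libraries of the comparison alone. In siHP1γ Eth, KARS1 was lost without replicate 3 of either group (up to 0.0853), and YARS1 without siHP1γ Eth replicate 1 or siNS Eth replicate 3 (up to 0.108). All of these are edgeR adjusted p-values. With library size in place of TMM, the share of genes called that were higher in siHP1γ Dex was 69.2% in place of 48.7%, and in siHP1γ Eth 63.8% in place of 52.1%. The synthetases called were then 1 higher and 5 lower with Dex, and 4 higher and 7 lower with Eth. AARS1 and NARS1 (Dex) and KARS1 (Eth) were no longer called, and YARS1 was higher under both treatments.

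At the threshold set for Dex few synthetase mRNAs were called, with counts near the shares of all genes called. At an adjusted p under 0.01 and a fold of at least 1.5, 0 of 34 were called in siNS cells and 0 in siHP1γ cells with edgeR and with DESeq2, where 2.71% and 1.67% of all genes were called. At an unadjusted p under 0.05 there were 5 in siNS and 3 in siHP1γ cells. The share of all genes at that threshold was not counted, so these numbers cannot be set against a background. In siNS cells TARS2 alone had an adjusted p under 0.05, as 9.16% of all genes did (log2 fold change 0.31 ± 0.0944, edgeR adjusted p = 0.0403). In siPRMT5 cells MARS2 alone was called, 2.94% of the 34, where 5.44% of all genes were, so this count too was near the background. MARS2, which supplies methionyl-tRNA in mitochondria, was at 30.5, 31.3 and 30.6 CPM in siPRMT5 Eth and at 48.5, 47.0 and 45.9 CPM in siPRMT5 Dex, without overlap (log2 fold change 0.61 ± 0.0867, edgeR adjusted p = 6.68e-06). In siNS cells it was at 31.9, 32.0 and 29.3 CPM with Eth and 34.8, 36.1 and 34.0 CPM with Dex.

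Without the fold limit, and at an adjusted p under 0.05, 7 synthetases responded to Dex in siPRMT5 cells, where 16.0% of all genes did, 7.52% higher and 8.48% lower. Higher with Dex were the mitochondrial enzymes MARS2, YARS2 (0.55 ± 0.104, edgeR adjusted p = 0.000332), NARS2 (0.38 ± 0.0828), PARS2 (0.36) and WARS2 (0.29), and the cytosolic LARS1 (0.18). WARS1, the cytosolic tryptophan enzyme, was lower (−0.20, edgeR adjusted p = 0.0244). YARS2 was at 33.9, 29.4 and 30.1 CPM in siPRMT5 Eth and 47.3, 46.3 and 42.9 CPM in siPRMT5 Dex. Its fold of 1.46 was just under the limit, and it passed without siPRMT5 Eth replicate 1 or siPRMT5 Dex replicate 3.

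**Figure D5:**
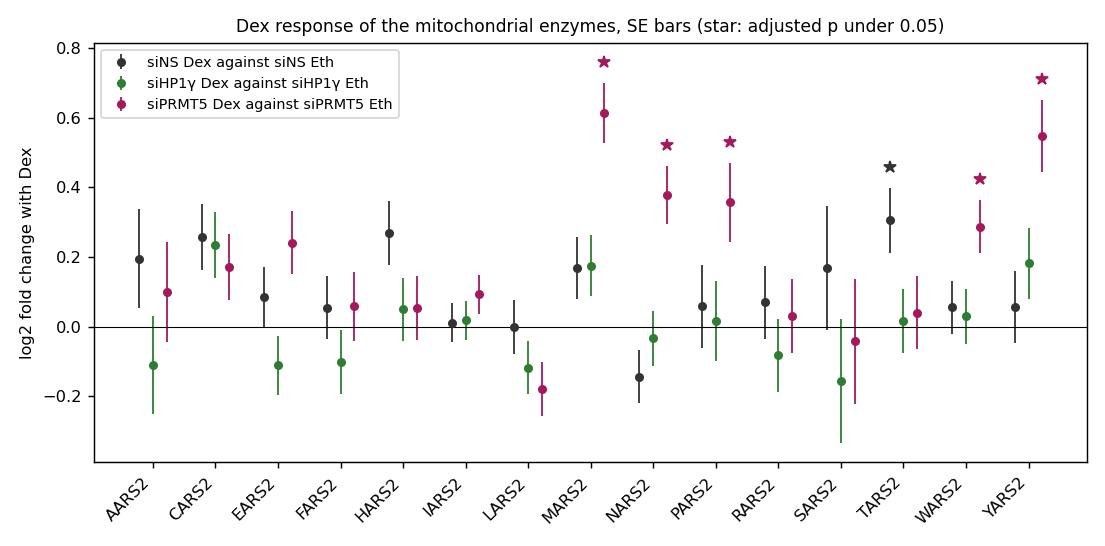
The log2 fold change with Dex (y axis, bars SE) of the 15 mitochondrial synthetase mRNAs (x axis) is plotted in siNS, siHP1γ and siPRMT5 cells, with a star at an adjusted p under 0.05. In siPRMT5 cells 5 genes carry a star, with MARS2 highest at 0.61, and in siNS cells TARS2 alone does.

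Whether depletion altered the effect of Dex was tested as an interaction. It passed for 2 of 34 synthetases in siPRMT5 cells, NARS2 and MARS2, when 3.80% of all genes passed. For NARS2 the response was −0.14 in siNS and 0.38 in siPRMT5 cells, a difference of 0.52 ± 0.112 (edgeR adjusted p = 0.00767). The MARS2 response was 0.17 in siNS and 0.61 in siPRMT5 cells, a difference of 0.45 ± 0.124 (edgeR adjusted p = 0.0402). The MARS2 interaction was lost in 12 of 18 fits that left out 1 library, with an adjusted p of up to 0.092, and it was not called without the filter on low counts. In siHP1γ cells the interaction passed for 0 of 34 with edgeR, where 0.399% of all genes passed. At an unadjusted p under 0.05 there were 4, and the share of all genes at that threshold was not counted. DESeq2 called 1, RARS1.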

How the data were processed

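The 18 RNA-seq libraries of MDA-MB-231 cells fell into 6 conditions of 3, by the sample labels. The authors prepared libraries with Lexogen kits, mapped reads on hg38 with Bowtie2 (2.4.2), which does not split reads at introns, and counted them with HTSeq (0.9.1), per the submitters' notes. The authors deposited counts per gene symbol, without normalization. Their table of DESeq2 (2.11.40.7) fold changes and p-values was not used. The strand setting and annotation are not given in the sources used here, so overlapping genes and genes with pseudogenes (among them AARS1, GARS1, IARS2, KARS1, RARS1, TARS2, WARS1 and WARS2) are uncertain. The paper calls them biological replicates, and the labels do not say whether they were separate cultures. The p-values set the differences between groups against the spread between these libraries.

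Genes passing edgeR's filterByExpr (15298) were scaled by TMM and fitted together over 18 libraries with edgeR 4.0.16 in R 4.3.3 (quasi-likelihood, 12 residual degrees of freedom). P-values were adjusted by Benjamini-Hochberg. Calls needed an adjusted p under 0.05 (depletions, interactions), or under 0.01 and a fold of 1.5 (Dex). SE came from the fold change and F. Coordinates and shared exon bases are from GENCODE 44 on hg38. The fit was tested on simulated data.

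The genes and lists were chosen with earlier results of these data known. Given in full were the 3 largest increases and decreases called in each depletion comparison among genes averaging 5 CPM or more, and every gene called for Dex or interaction. SARS1, TARS2 in siNS cells, YARS2 and others named beyond this rule were chosen after their values were seen. Alternatives were DESeq2 1.42.0, other scalings and filters, a replicate block, the libraries of each comparison alone, another Dex threshold and leaving out each library.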

Additional observations from a re-analysis of the deposited data

Results flagged for a closer look

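The Dex response of 2 mitochondrial synthetases differed between siPRMT5 and siNS cells by the test of the difference itself (interaction, edgeR quasi-likelihood test). They were 5.88% of the 34 synthetases, beside 3.80% of all genes tested, so the count itself was near that background. NARS2 changed with Dex by 0.52 more on the log2 scale in siPRMT5 than in siNS cells (edgeR adjusted p = 0.00767), going from 22.1 ± 1.15 CPM with Eth to 28.8 ± 0.754 CPM with Dex in siPRMT5 cells, and from 40.2 ± 1.80 to 36.4 ± 0.296 CPM in siNS cells (mean ± SD, n = 3). The difference for MARS2 was 0.45 (edgeR adjusted p = 0.0402), and this call was lost in 12 of the 18 fits that left out 1 library.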

How the results depend on the processing

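Counts of synthetases called in the 4 depletion comparisons stayed within 1.5 times the reported count under every alternative. They were 17 to 20 for siPRMT5 Dex (reported 19) and 14 to 15 for siPRMT5 Eth (15). For siHP1γ Dex they were 6 to 9 (7) and for siHP1γ Eth 9 to 11 (9). None of the called fold changes given in full by the rule above changed sign. Some small class medians did with library size in place of TMM. The cytosolic median in siHP1γ Dex went from −0.07 to 0.01, and the mitochondrial median in siHP1γ Eth from −0.03 to 0.02. At an adjusted p under 0.05 with no fold limit, the Dex response was called for 1 synthetase in siNS cells (reported 0) and for 7 in siPRMT5 cells (reported 1). The interaction gave 1 call with DESeq2 in siHP1γ cells (reported 0), and 4 with DESeq2, 3 with the libraries of the comparison alone and 1 without the filter on low counts in siPRMT5 cells (reported 2). The causes were not tested.

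Leaving out each library once, the counts ran from 16 to 20 for siPRMT5 Dex, from 14 to 16 for siPRMT5 Eth, from 6 to 9 for siHP1γ Dex and from 7 to 10 for siHP1γ Eth. The Dex response in siPRMT5 cells gave 1 to 2 calls (2 without siPRMT5 Eth replicate 1 or siPRMT5 Dex replicate 3, each adding YARS2), the siPRMT5 interaction 1 to 3, and the other Dex responses and the siHP1γ interaction 0.

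Same-numbered replicates showed no steady pairing (45 pairs, correlations from −0.275 to 0.422, median 0.0142). Pairs with different numbers ran from −0.43 to 0.43 (90 pairs, median −0.00614). Correlations over 0.1 were found in 12 of the 45 pairs and 14 of the 90. The numbers were not taken to pair the samples. With the replicate number as a block, 9 synthetases were called in siHP1γ Dex in place of 7, adding EARS2 and FARS2, and the other counts were equal to those reported: 19 in siPRMT5 Dex, 15 in siPRMT5 Eth, 9 in siHP1γ Eth, 2 and 0 interactions, and 1, 0 and 0 Dex responses. With 6 to 17 reads per library, CARS1 could show only large changes.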
